A study of Drosophila melanogaster with 6 samples.

Results

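Of the 1709 H3K27me3 peaks that the authors listed for H3K27R wing discs, 213 were at least 3000 bp and under 10000 bp wide, and these mid-size peaks are described here. They were chosen by width alone, as end minus start of each listed peak, with no merging of neighbours. The 225 peaks of 10 kb or more are called broad, and the 1271 peaks under 3 kb are called narrow. Width, fold enrichment and q-value all come from the same pooled list, so they are given as a description with no test.

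Trimethylation of histone H3 at lysine 27 (H3K27me3) is written by Polycomb repressive complex 2 and is bound by Polycomb repressive complex 1. In Drosophila it typically spreads over whole silenced developmental genes from Polycomb response elements, and the same gene can carry the mark in one part of a disc and be active in another. The wing imaginal disc is the larval sheet of cells that becomes the adult wing and thorax. Selector genes and signalling genes divide it into compartments and fates.

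The series holds 6 CUT&RUN libraries, an assay in which an antibody tethers micrococcal nuclease to chromatin and the cut fragments are sequenced. They came from third-instar wing discs expressing H3 K27M, an oncohistone, or the H3 K27R control, with 2 H3K27me3 libraries and 1 IgG library for each. Both genotypes carried Act5C-GAL4, a driver active in nearly all cells, and alphaTub84B-GAL80ts, a temperature-sensitive repressor of GAL4, with UASt-H3 K27R in the control discs and UASt-H3 K27M in the others. Larvae were moved from 25 to 32 °C at 44 h after egg laying, kept there for 72 h and dissected at 116 to 119 h, with 20 discs pooled per replicate, and the labels name no change to the larvae's own H3 genes. The control is thus itself a lysine 27 mutant histone expressed beside the normal one. The peak list is 1 list that the labels tie to both H3K27R libraries, so no value per replicate could be given and read depth is unknown. It holds no expression, so the tissue could not be checked by its markers: 4 of 5 wing disc markers (vg, nub, ap and Dll, not sd) and all 4 eye-antennal markers (ey, so, eya and toy) lay under a peak.

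The mid-size peaks made up 12.5% of all peaks and 11.3% of the covered length, or 1.11 Mb of 9.86 Mb. Their widths ran from 3019 to 9931 bp with a median of 4571 bp and quartiles of 3728 and 6255 bp. Fold enrichment, as the authors' peak caller gave it against its own background, had a median of 2.89 and ran from 2.06 to 13.7, with quartiles of 2.59 and 3.37. Broad peaks had a median of 7.41 and narrow peaks 2.27. Most mid-size peaks were thus low: 120 of 213 (56.3%, exact 95% interval 49.4 to 63.1%) were under 3-fold, against 4.00% of broad and 93.7% of narrow peaks. A small group of 8 reached 10-fold or more, and 19 reached 5-fold. The −log10 q-value was at least 10 in 47 of them (22.1%), in 88.9% of broad peaks and in 2.91% of narrow ones. Within the class the median fold enrichment was 2.60 in the 65 peaks of 3 to 4 kb and 3.3 in the 44 peaks of 7 to 10 kb.

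**Figure D1:**
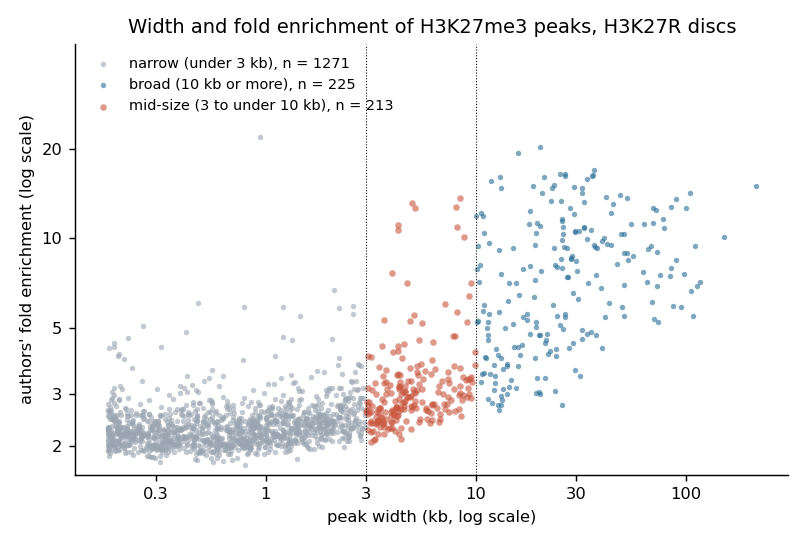
Width (kb, log scale) and the authors' fold enrichment (log scale) of every listed peak, 1 point per peak, with dotted lines at 3 and 10 kb. The 213 mid-size peaks mostly sit between 2 and 4-fold, and a separate group of 8 stands at 10-fold or more.

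The limits of the class cut through a continuous range of widths. The widest peaks left out below were 2962, 2973 and 2973 bp, at 2.54-fold, 2.33-fold and 2.65-fold. The narrowest kept were 3019 bp beside slou (2.60-fold), 3026 bp on CCHa2 (2.80-fold) and 3051 bp on CG9294 (2.65-fold). At the other limit the widest kept were 9604 bp beside noc (3.28-fold), 9858 bp on CG14316 (3.75-fold) and 9931 bp on Ser (4.14-fold). The next in width, which count as broad, were 10005 bp on H2.0 (11.9-fold), 10136 bp on CG44251 (7.90-fold) and 10148 bp near CG3626 (5.21-fold).

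The highest mid-size peaks included both named developmental factors and stretches without a protein-coding gene. The highest, 13.7-fold at 2L 20112292 to 20120717 in dm6, overlapped no annotated gene and lay 8.1 kb from CG13970. The second, 13.1-fold, reached over the end of Sox100B, a SoxE-type transcription factor (3R 31081827 to 31086786), and a broad peak covered another 49.7% of that gene. The third, 12.7-fold at 2L 544878 to 552883, covered 99.5% of Ets21C, an ETS-family transcription factor, and all of nAChRbeta3, a nicotinic acetylcholine receptor subunit whose gene lies within the span of Ets21C. A pair of adjacent peaks on chromosome 4, at 11.1-fold and 10.1-fold, covered together 77.3% of fd102C, a forkhead-family factor. Of the 10 highest, 5 overlapped no protein-coding gene, among them peaks 478 bp from PRAS40 (10.7-fold), 19 bp from the Polycomb group gene Psc (7.61-fold) and 155 bp from bs (7.08-fold), which encodes the fly serum response factor of intervein cells.

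Of the remaining peaks at 10-fold or more, 2 were the outermost peaks of their chromosome arms. The first peak of 2L (4566 to 12736, 10.9-fold) covered 25.1% of l(2)gl, the cell polarity gene lethal giant larvae, and started before the first annotated gene of the arm. The last peak of 3R (32068850 to 32073963, 12.6-fold) started 408 bp past the end of the last annotated gene, Map205. They were also the 2 mid-size peaks farthest from any other peak, at 346.1 kb and 538.4 kb. Subtelomeric repeats of Drosophila are known to bind Polycomb group proteins. The sources used here do not say how reads from repeats were placed, and its part in these values was not tested.

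At the low end, the 5 weakest peaks stood at 2.06-fold near CG42680, 2.10-fold near esg, 2.11-fold near Ama, 2.12-fold on sick and 2.19-fold on Wnt2. Their −log10 q-values ran from 1.86 to 2.75.

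Mid-size peaks lay on genes in all possible ways, with no arrangement holding most of them. A peak that covered at least 1 protein-coding gene in full was counted first, then one lying inside a gene, then one reaching across a gene's end. Of the 213, 33 covered a gene in full (15.5%, 10.9 to 21.1%), 66 lay inside a gene (31.0%, 24.8 to 37.7%), 40 reached across a gene's end (18.8%, 13.8 to 24.7%) and 74 overlapped no protein-coding gene (34.7%, 28.4 to 41.5%). Broad peaks covered a gene in full in 57.8% of cases and missed protein-coding genes in 11.6%. Narrow peaks covered one in full in 0.79% and lay inside a gene in 54.1%. A wider interval meets and covers more genes by its length, so these shares were not tested against each other. Of the length under mid-size peaks, 48.2% fell within protein-coding gene spans, with 46.3% for broad and 54.4% for narrow peaks, and 67.3% for the chromosome arms as a whole.

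**Figure D2:**
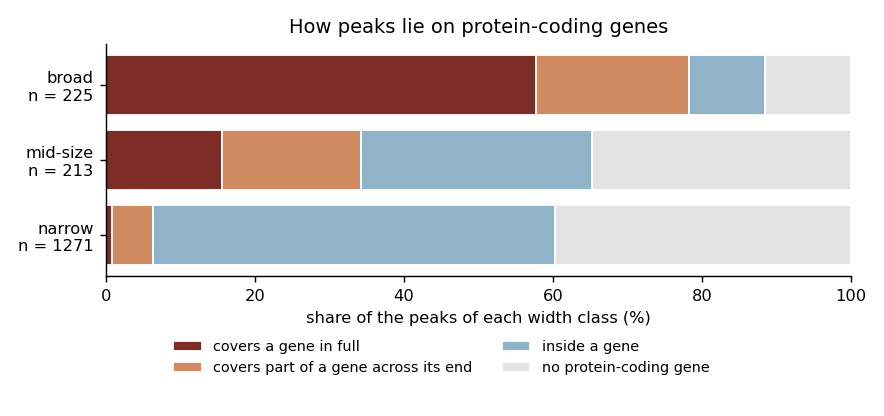
Share of the peaks of each width class (%) by how they lie on protein-coding genes. The mid-size bar splits into 15.5% that cover a gene in full, 18.8% across a gene's end, 31.0% inside a gene and 34.7% with no protein-coding gene.

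In all, 166 protein-coding genes overlapped a mid-size peak by at least 1 bp, which is 1.19% of the 13922 annotated on the 6 arms with peaks. For broad peaks the number was 447 (3.21%), for narrow peaks 509 (3.66%), and for all peaks 1005 (7.22%). The mid-size peaks covered a median of 46.5% of the span of their genes, compared with 100% for broad and 10.7% for narrow peaks. Of the 166 genes, 28 also carried a broad peak and 92 carried mid-size peaks alone. The median span of the 166 was 6473 bp, while it was 2163 bp for all protein-coding genes. The width that defines the classes bounds the share a peak can cover, and a long gene meets a peak more readily by its length. Neither the shares nor the spans were therefore tested.

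Developmental regulators were present under mid-size peaks, but most regulators lay under broad ones. Among 206 genes of 8 lists of transcription factors and signalling ligands, 23 overlapped a mid-size peak (11.2%, exact 95% interval 7.21 to 16.3%, where all protein-coding genes stood at 1.19%), 132 a broad peak (64.1%, where all stood at 3.21%) and 33 a narrow peak (16.0%, where all stood at 3.66%). A gene can count in more than one class. Of the mid-size peaks themselves, 28 (13.1%) overlapped such a gene, and 116 of the broad peaks (51.6%) did. Over all 37 lists, 39 listed protein-coding genes carried a mid-size peak.

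The 39 genes fell into a set of 25 with no broad peak and a set of 14 that also carried a broad peak. In the first set the genes were short, with a median span of 2707 bp, and the mid-size peaks covered a median of 72.5% of it. In the second the median span was 46420 bp, and the mid-size peaks covered a median of 13.9%. At least 50% of the span lay under mid-size peaks in 16 of the 25 and in 1 of the 14. The width classes shape both contrasts. A gene that meets a broad peak and a separate mid-size peak tends to be long. The share of a gene that a mid-size peak can cover falls as its span grows. The sets were therefore not tested against each other.

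**Figure D3:**
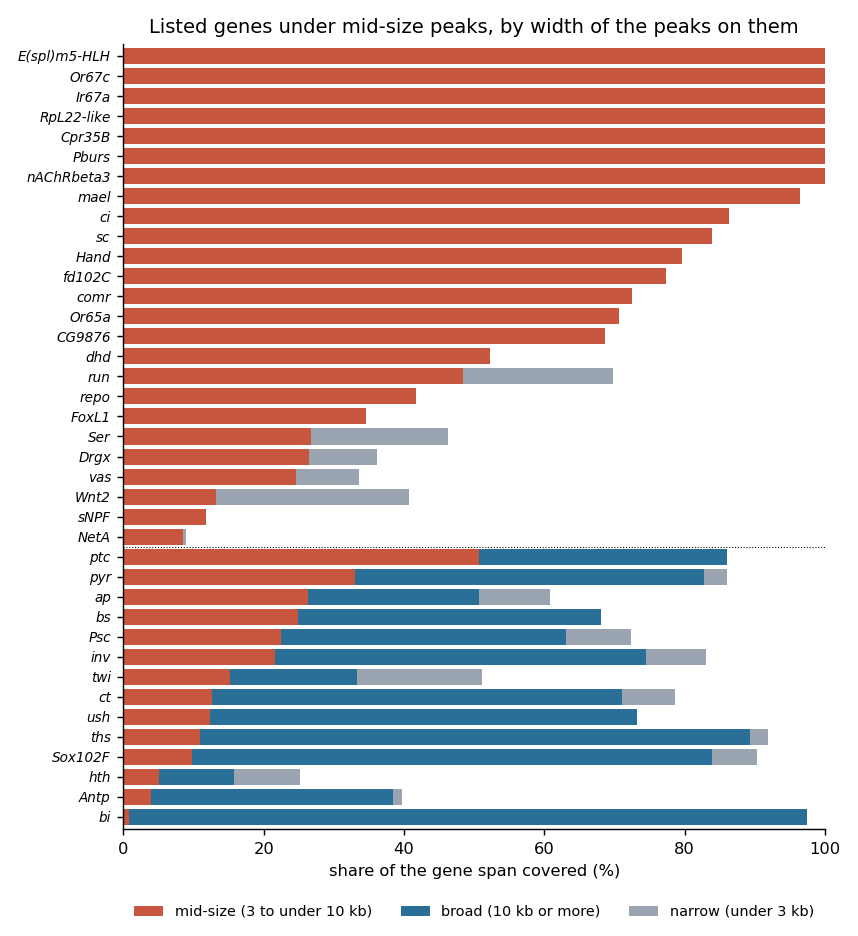
Share of the gene span (%) under mid-size, broad and narrow peaks for the 39 listed protein-coding genes that overlap a mid-size peak, 1 bar per gene. The 25 genes above the dotted line carry no broad peak, and the 14 below it carry one.

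Genes that pattern the wing disc had the most members under mid-size peaks of any list of protein-coding genes, 9 of 37. That was 24.3% (11.8 to 41.2%), where all protein-coding genes stood at 1.19%. Under broad peaks it was 29 of 37 (78.4%), where all stood at 3.21%, and under narrow peaks 8 of 37 (21.6%), where all stood at 3.66%. A count depends on list size, and adult muscle precursor markers had the higher share, 2 of 6 (33.3%). Of the 9 wing genes, 7 also had a broad peak. The wing list held genes of the Hedgehog pathway, which patterns the disc from the compartment boundary. The gene of its transcription factor, ci, carried 2 mid-size peaks on chromosome 4 (48135 to 53074 at 3.3-fold and 53925 to 59278 at 4.55-fold), which covered 86.3% of its 9332 bp span, and no broad peak. The gene of its receptor, ptc, was covered over 50.7% by 1 mid-size peak at 3.73-fold and over 86.0% by all peaks together. Ser, which encodes a Notch ligand of the dorsal compartment, had no broad peak either, and its mid-size peak of 9931 bp at 4.14-fold covered 26.8% of the gene.

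The remaining wing genes also carried a broad peak. Their mid-size peaks covered 26.4% of ap, the dorsal selector, 24.9% of bs, 21.6% of inv, the paralogue of engrailed in the posterior compartment, and 12.3% of ush, a cofactor of GATA factors. In hth, a homeobox gene of the hinge and proximal wing, the share was 5.11%. In bi, a T-box target of Dpp, it was 0.77%, where all peaks together covered 97.4%. The peaks on inv stood at 3.46-fold and 2.24-fold and the others of this group between 2.57-fold and 3.36-fold.

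Several fate regulators outside the wing patterning list carried mid-size peaks without a broad one. Hand, a bHLH factor of heart and visceral muscle (gene at 2L 10292679 to 10295385), was covered over 79.6% by a peak at 3.19-fold that lay 248.1 kb from the next peak. The proneural gene sc was covered over 83.9% at 3.08-fold, repo, the homeobox gene of glia, over 41.7% at 3.56-fold, and the pair-rule gene run over 48.3% at 2.39-fold. Among homeobox and forkhead factors, CG9876 was covered over 68.7% at 3.23-fold, FoxL1 over 34.6% at 3.00-fold and Drgx over 26.5% by peaks of up to 7.06-fold. The mesoderm factor twi and the homeobox gene ct, both on the list of adult muscle precursor markers, the SoxD gene Sox102F, and the Hox gene Antp had a broad peak as well, and mid-size peaks covered 15.2%, 12.6%, 9.76% and 3.95% of them.

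None of the 23 eye and antenna determination genes overlapped a mid-size peak, which allows a share of up to 14.8%, while 22 of them overlapped a broad one. The same held for tracheal markers, with 0 of 5 under mid-size peaks and 4 of 5 under broad peaks, and for haemocyte markers, with 0 of 7 and 2 of 7. The exact interval of each of these counts of 0 includes 1.19%, the share of all protein-coding genes under a mid-size peak.

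**Figure D4:**
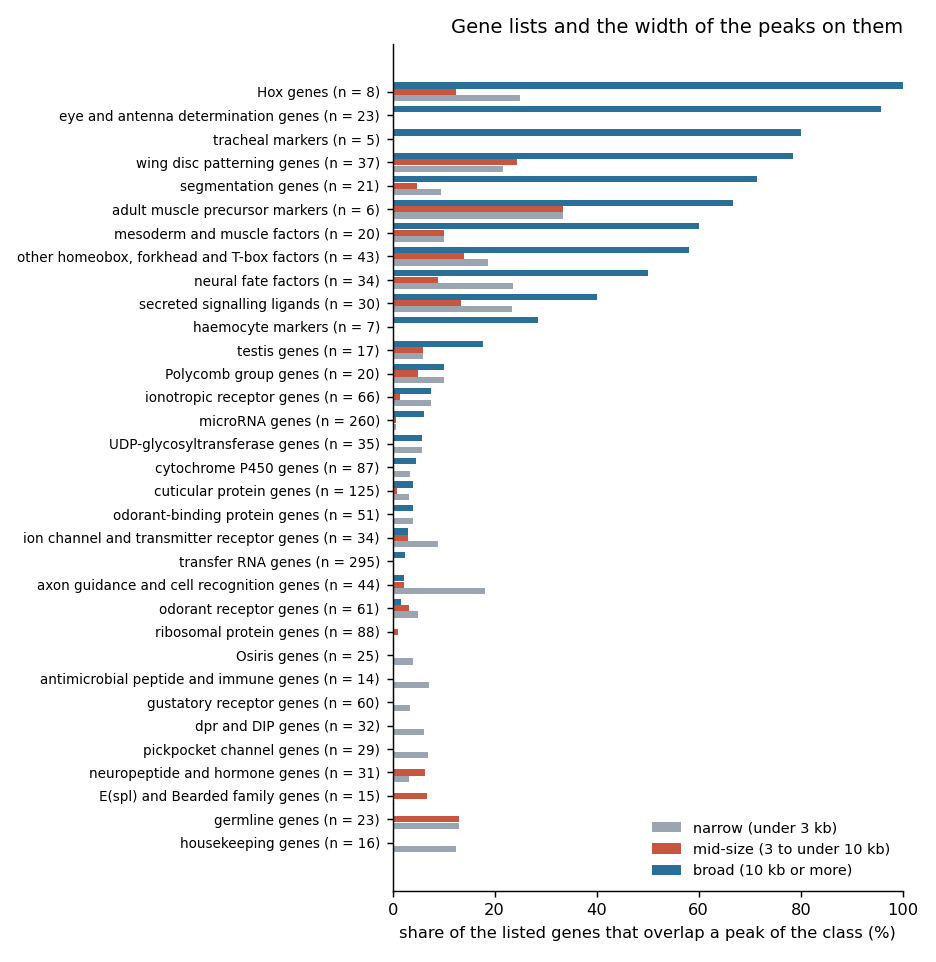
Share of the genes of each list (%) that overlap a narrow, mid-size or broad peak, for lists of under 1000 genes with at least 1 gene under a peak. Broad peaks have the longest bars in the developmental lists at the top. In the short lists at the bottom 1 to 3 genes make up a bar, and all protein-coding genes stand at 1.19% for mid-size and 3.21% for broad peaks.

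Of 23 germline genes listed, 3 overlapped a mid-size peak (13%, 2.78 to 33.6%, where all protein-coding genes stood at 1.19%). Narrow peaks overlapped the same number, 3 of 23 (vas, rhi and orb), where all stood at 3.66%. None of the germline genes overlapped a broad peak, where all stood at 3.21%, a share at which a list of this size would hold less than 1 such gene. The gene mael, which acts in the piRNA pathway, was covered over 96.5% of 5032 bp by a peak at 5.27-fold (3L 22721303 to 22726159) that lay 166.5 kb from the nearest other peak. The gene dhd, a thioredoxin of the egg, was covered over 52.3% at 3.29-fold, and its peak lay 212.7 kb from the next. A peak at 2.61-fold covered 24.6% of vas, the germline RNA helicase, and reached into the genes solo and vig that share its span. In the testis list, 1 of 17 genes had a mid-size peak, comr, needed for meiotic entry in spermatocytes (72.5% covered, 2.67-fold), and 3 had a broad one.

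Of 30 signalling ligand genes 4 had a mid-size peak (13.3%, 3.76 to 30.7%, where all protein-coding genes stood at 1.19%): Ser, Wnt2 (13.2% covered, 2.19-fold), and the FGF genes pyr (33.0%, 2.41-fold) and ths (11.0%, 2.78-fold), of which the FGF genes also had broad peaks. Narrow peaks overlapped 7 of the 30 (23.3%), these 4 among them, where all protein-coding genes stood at 3.66%. Neuropeptide and hormone genes had 2 of 31 under mid-size peaks (6.45%, 0.79 to 21.4%, which includes 1.19%). They were Pburs, a subunit of the hormone bursicon (100% covered, 6.0-fold), and sNPF (11.8%, 3.88-fold). None of the 31 had a broad peak, where all protein-coding genes stood at 3.21%, a share at which so short a list would hold few. Axon guidance and cell recognition genes had 1 of 44, NetA, which encodes a netrin (8.52%, 4.34-fold). Under narrow peaks they had 8 of 44 (18.2%), where all protein-coding genes stood at 3.66%. Ion channel and transmitter receptor genes had 1 of 34, nAChRbeta3. The exact intervals of the mid-size shares of 1 of 44 and 1 of 34 both include 1.19%.

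Gene families defined by their symbols had few or no members under mid-size peaks, and the exact interval of each share given here includes the 1.19% of all protein-coding genes. Odorant receptor genes had 2 of 61 (Or67c, 100% covered at 3.31-fold, and Or65a, 70.6% at 2.41-fold), ionotropic receptors 1 of 66 (Ir67a, 100% at 3.99-fold) and cuticular protein genes 1 of 125 (Cpr35B, 100% at 2.47-fold). Gustatory receptors, cytochrome P450 genes and UDP-glycosyltransferases had none of 60, 87 and 35. Ribosomal protein genes had 1 of 88, and it was RpL22-like, a paralogue enriched in the male germline (100%, 2.45-fold). Among E(spl) and Bearded family genes, E(spl)m5-HLH, a Notch target, was the 1 of 15 (100%, 2.31-fold), and among 20 Polycomb group genes it was Psc (22.4%, 2.38-fold). None of 16 housekeeping genes and none of 20 cell cycle and cell death genes had one. Of non-coding genes, mid-size peaks overlapped 25 of 1944 long non-coding RNA genes (1.29%, 0.83 to 1.89%), near the 1.19% of protein-coding genes. Broad peaks overlapped 208 of the 1944 (10.7%). Mid-size peaks also overlapped 2 of 260 microRNA genes (0.77%), mir-993 in the Antennapedia complex and mir-4984.

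Most mid-size peaks had another peak close by, but most did not adjoin a broad one. The nearest other peak lay within 5 kb in 188 of 213 (88.3%, 83.2 to 92.3%), at a median gap of 1225 bp over all 213. The share was 72.9% for broad and 73.7% for narrow peaks. A broad peak lay within 5 kb of 51 of them (23.9%, 18.4 to 30.3%). Over all 213 the median distance to the nearest broad peak was 30.6 kb, and 84 were more than 100 kb from any. The smallest gap between peaks in the whole list was 712 bp.

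**Figure D5:**
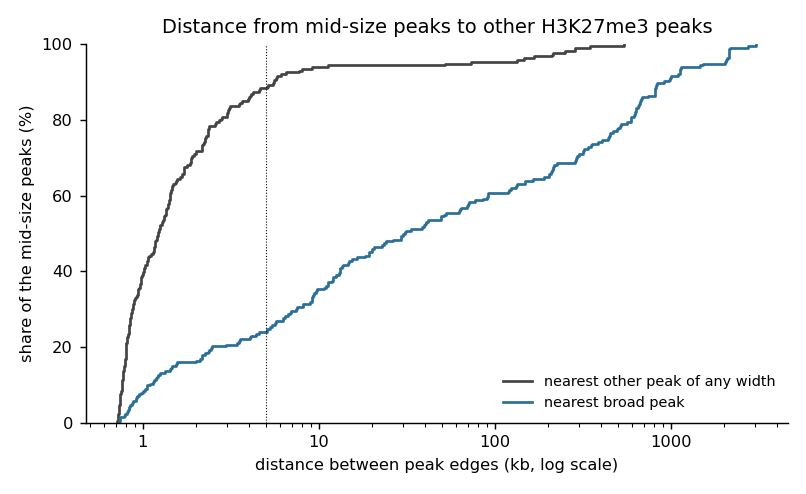
Cumulative share of the 213 mid-size peaks (%) by distance between peak edges (kb, log scale) to the nearest other peak of any width and to the nearest broad peak, with a dotted line at 5 kb. At 5 kb, 88.3% of the peaks have a neighbour and 23.9% a broad neighbour.

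Joining all peaks across gaps of up to 5 kb sorted the mid-size peaks into 3 settings. There were 90 in blocks that held a broad peak, 98 in blocks without one, and 25 alone. Their median fold enrichment was 2.83, 2.80 and 3.41, and each setting ranged widely, from 2.10 to 11.1, from 2.12 to 13.7 and from 2.06 to 12.6. In blocks with a broad peak, 42 of 90 (46.7%, 36.1 to 57.5%) overlapped no protein-coding gene, compared with 25 of 98 (25.5%, 17.2 to 35.3%) in blocks without one and 7 of 25 alone. A gene was covered in full by 10, 18 and 5 of them.

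The 213 peaks lay in 147 such blocks, of which 18 held 3 or more mid-size peaks, 62 in all. The block with most, 5, spanned 78.1 kb on 2L (15276623 to 15354679) with 2 broad peaks, and its genes included esg, a Snail-family factor of stem and imaginal cells, and nht, a testis TAF. The widest block without a broad peak was 40.0 kb on the X (364514 to 404532). It held the proneural genes ac and sc, and consisted of 4 mid-size and 6 narrow peaks, none above 3.08-fold. A block of 80.4 kb on the X held the JAK/STAT ligand genes upd1, upd2 and upd3, with 4 mid-size and 3 broad peaks, and its mid-size peaks stood at 2.69-fold to 3.28-fold against 10.4-fold for the highest. Ptp61F, a protein tyrosine phosphatase gene of 132765 bp on 3L, carried 6 mid-size peaks, the most on any gene.

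Among the 74 mid-size peaks without a protein-coding gene, the nearest such gene lay at a median of 3001 bp, and 45 lay within 5 kb of one. The nearest gene was one of the developmental lists in 18, and a listed gene was on either side in 27. Those lists hold 206 of the 13922 protein-coding genes. The counts are of peaks, and vvl, knrl and esg each count more than once among the 18. Peaks of the 18 stood 105 bp from vvl, a POU factor of trachea and wing veins, 130 bp from run, 533 bp from noc, a zinc finger gene of proximal appendages, 832 bp from upd3 and 1572 bp from slou, a muscle identity factor. The farthest lay 53.6 kb from vvl. Of the 74, 48 had a nearest gene that itself overlapped another peak. Over all protein-coding genes, 7.22% overlapped a peak of any width, and the difference was not tested.

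Mid-size peaks covered 43 protein-coding genes in full (25.9% of 166 genes), with a median span of 1163 bp. A gene covered in full cannot be longer than its peak, so the width that chose the peaks keeps these genes short. Their spans were therefore not tested. No peak covered more than 3 genes in full, and 3 peaks did so. One on 3R took in CG6908, CG18765 and Fer3, a bHLH factor, along with 93.9% of CG6834 (11684883 to 11694407, 3.41-fold, 284.0 kb from the next peak). The second, on 3L at 3.05-fold, covered Mzt1, a microtubule nucleation protein, with CG32298 and CG32299, and it lay inside the gene Svil. The third, on 2L at 2.39-fold inside Drgx, covered Sfp24Bb, Sfp24Bc and Sfp24Bd, seminal fluid protein genes. A peak on PAPLA1 at 3.37-fold covered CG42763 and CG31606. On the X a peak at 3.65-fold inside Bx, an LMO gene of the dorsal wing, covered CG15042 and CG15047.

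Per megabase, chromosome 4 carried 4.72 mid-size peaks (6 peaks), 2L 2.05, 2R 1.82, 3L 1.43, X 1.36 and 3R 1.28. The order was not that of the broad peaks, for which chromosome 4 stood at 3.93, 3R at 2.03 and 2L at 1.79 per Mb.

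The comparison that the authors' second list permits is whether genes upregulated with H3K27M carried these peaks in control discs. That list holds 131 protein-coding genes, 0.941% of all, and gives no expression values. Of the 166 genes with a mid-size peak, 4 were on it (2.41%, exact 95% interval 0.66 to 6.05%, which includes 0.941%). For broad peaks it was 2 of 447 (0.45%, 0.05 to 1.61%, which includes 0.941%). For narrow peaks it was 13 of 509 (2.55%, 1.37 to 4.33%, which lies above 0.941%). The 4 genes were CG13287 (100% covered at 2.78-fold), bard (100% at 3.14-fold), Psc and mwh, a planar polarity gene of wing hairs (13.3% at 3.48-fold). In CG13287 and bard the gene start lay in the peak, and Psc alone of the 4 also had a broad peak. Psc and mwh also overlapped narrow peaks, so the counts of the classes share genes. H3K27me3 in H3K27M discs was not analysed here, so no change of the mark at these genes is given.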

How the data were processed

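The authors' peak list gives, per the file layout, each peak's start and end, its fold enrichment (a ratio over the caller's background), its −log10 q-value and a score. All are the authors' deposited values. Per the submitters' processing notes, Bowtie2, MACS2 and dm6 were used. The sources used here do not give versions, the threshold, the control behind the background or how upregulated genes were called. Depth is unknown.

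Genes are from RefSeq's table of assembly Release 6 (17684 genes on 6 arms); all 148 upregulated intervals matched 1 gene's span exactly. Overlap means at least 1 bp. Python 3.11.15, pandas 2.3.3 and scipy 1.17.1 were used, and functions were tested on simulated intervals. Shares carry exact (Clopper-Pearson) 95% intervals for counting error, treating neighbouring genes and peaks as independent. No test was made, since nothing is replicated and width chose the members.

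The members and the 37 gene lists (21 by symbol, 16 by symbol pattern) were chosen with earlier results of these data known. Named peaks and genes are listed genes under a mid-size peak; upregulated ones; the 10 highest and 5 lowest peaks; the 5 farthest from others; the 5 covering most genes; and 3 on either side of each width limit. Other names, such as those of blocks and intergenic neighbours, are examples, picked once their values had been seen. Promoter motifs, planned earlier, were not analysed here.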

Additional observations from a re-analysis of the deposited data

How the results depend on the processing

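No paired analysis was possible because both libraries share 1 peak list, which also means that leaving out a replicate was not possible. Of 60 recomputed values, 43 stayed within 1.5 times the main count or within the main interval; the other 17 follow. Starting the class at 2000 bp gave 350 peaks with a median of 2.72-fold, starting it at 5000 bp gave 87 peaks, 75 genes, 22 listed genes, 2 upregulated genes and 3.11-fold, and ending it at 15000 bp gave 3.03-fold. Merging across 1000 bp gave 2.74-fold. Requiring 50% of the gene span left 81 genes, 17 listed genes, 2 upregulated genes and 29.1% of peaks with a gene. Counting gene starts left 2 upregulated genes, and this could be run for them alone, since the gene table used here gives no strand. Counting all annotated genes raised the listed genes to 67 because non-coding lists then enter. A broad peak lay within 2000 bp of 16.4% and within 20000 bp of 45.1%. A stricter q-value, a fold enrichment at or above the median of all peaks and leaving out chromosome 4 moved none of the 7 results beyond those ranges. Each choice changes what is counted by its construction. Depth is unknown, so what it limits could not be judged.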

Other observations

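Some genes outside the lists, chosen after their values were seen, belong to pathways that pattern the wing. In the Dpp pathway, cv-2, a BMP-binding protein of crossveins, was covered over 33.7% by 2 mid-size peaks at up to 3.46-fold and over 67.4% by all peaks. The gene of the receptor tkv was covered over 6.03% at 2.22-fold and that of the secreted modulator magu over 36.8% at 2.25-fold, both with no broad peak. In EGFR signalling, ru, a rhomboid-family protease gene, was covered over 38.5% at 3.05-fold and over 86.0% by all peaks.

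Some genes of male reproduction or meiosis, also chosen after their values were seen, lay under 4 mid-size peaks and no broad peak. Of the 17 listed testis genes 1 had a mid-size and 3 a broad peak. Ebp and EbpII, ejaculatory bulb protein genes, were both covered in full at 2.72-fold. The testis proteasome subunit gene Prosbeta5R1 was covered in full at 2.99-fold, and ord, needed for meiotic chromosome cohesion, over 85.5% at 2.40-fold. Near Sfp24Bb, Sfp24Bc and Sfp24Bd, which were covered in full, Sfp24Ba was covered over 64.9% at 2.39-fold. The peaks on Ebp and Prosbeta5R1 lay in blocks with a broad peak, and those on ord and the Sfp24B genes in blocks without one. All of these genes were picked by hand, and no share of such genes was computed.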
